A study of Mus musculus with 16 samples.

Results

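Chemokines and the ligands of the CSF1 receptor were followed through the cell types of the newborn mouse testis. The genes were chosen by name, for their place in signalling to macrophages and in cell migration, and all 10 (Csf1, Il34, Csf1r, Cxcl12, Cxcr4, Ackr3, Ccl2, Ccl7, Ccl11 and Ccl17) were among the 30451 genes of the count table. The testes came from mice at postnatal day 2 of 2 labelled genotypes, Wild type and Ddx5 conditional knockout. By the study's methods the knockouts, written Ddx5-/-, came from Ddx5 flox/flox mothers and Ddx5+/- fathers bred from Ddx5 flox/flox and Mvh-Cre mice; the Mvh promoter drives Cre in germ cells, so that macrophages, Sertoli, Leydig, myoid and stromal cells were not the cells meant to lose Ddx5. Whole testes were dissociated and captured as single cells on the 10x Genomics 3′ v3 platform, which counts each captured RNA molecule once as a unique molecular identifier (UMI). The labels name 8 libraries per genotype, but the table separates only 2 barcode suffixes, so each genotype was 1 library here and no test between genotypes was possible.

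After barcodes with under 2000 genes or over 10% mitochondrial UMIs were left out, 11279 cells remained of 12186, 6329 wild type (median 11170 UMIs a cell) and 4950 of the knockout label (median 11668). The 2 libraries shared 12 barcode sequences. Ddx5 itself was not lower in germ cells of the knockout label: its wild type level was 1152 UMIs per 1000000 UMIs of the cells (CPM), below the 1736 CPM of the knockout label. That value rests on 12 germ cells of the knockout label. In germ cells 70.8% of all genes compared were 1.5-fold or more apart between the libraries. In Sertoli cells, not meant to lose Ddx5, it was 0.943 times the wild type level. The study's single-cell qRT-PCR of sorted germ cells found Ddx5 decreased in the knockout. The transcript of the Cre transgene, added by the authors to their reference, was absent from the wild type cells (0 UMIs), while the other library held 20. GFP, from the Oct4-GFP transgenic allele that the study used to mark germ cells, had 488 and 22 UMIs. No barcode carries a genotype label: the suffixes were assigned from the cell numbers the study states and from the Cre UMIs above. The Cre counts are therefore no separate check of the label. The second library is called by the label assigned to it throughout, the library labelled Ddx5 knockout or, in short, the knockout label. Cells were sorted into types by a few marker transcripts, none of them a gene described here: macrophage by C1qa, C1qb and C1qc (31 wild type cells and 23 of the knockout label), Sertoli by Amh (2256 and 1635), Leydig by Cyp11a1, Cyp17a1 and Hsd3b1 (177 and 143), myoid by Acta2 and Myh11 (764 and 524), stroma by Pdgfra with little Amh (3590 and 3005) and germ by 3 of Dazl, Ddx4, Mael and Stk31 (125 and 12). The types were not exclusive. Of all cells 1371 (12.2%) passed more than 1 gate, and 1152 of the 1288 myoid cells also passed the stroma gate. Scrublet, which simulates doublets, marked 11.2% of the Sertoli, 10.6% of the Leydig and 1.97% of the stroma cells. The 7 macrophage markers summed to 8745 and 11078 CPM in macrophages and to at most 150 CPM in any other type, and the 5 germ markers summed to 401 and 263 CPM in germ cells.

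CSF1R is the receptor tyrosine kinase on which most macrophages depend for survival, and its ligands are CSF1 and IL34. CXCL12, made by mesenchymal cells in many tissues, attracts cells that carry CXCR4, including primordial germ cells on their way to the gonad, and ACKR3 binds the same ligand but mainly removes it without classical G protein signalling. CCL2 and CCL7 draw monocytes through CCR2, CCL11 acts on eosinophils through CCR3, and CCL17 acts through CCR4 on T cells. The pair of types tested against each other was in each case the highest and the next by these same levels. The order of levels over the 6 types is given below as CPM in both libraries, with exact Poisson 95% intervals that cover counting error only. One type was tested against the mean of the other 5 in an edgeR quasi-likelihood fit of the 12 sums (6 types in 2 libraries), with p adjusted by Benjamini-Hochberg over all 16992 genes tested. Those p-values measure only how the differences between types varied between the 2 libraries, after a term for library took out their shared shift. The 2 libraries carry different genotype labels, so they are not replicates of 1 condition. Cells that passed more than 1 gate enter more than 1 sum.

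**Figure D1:**
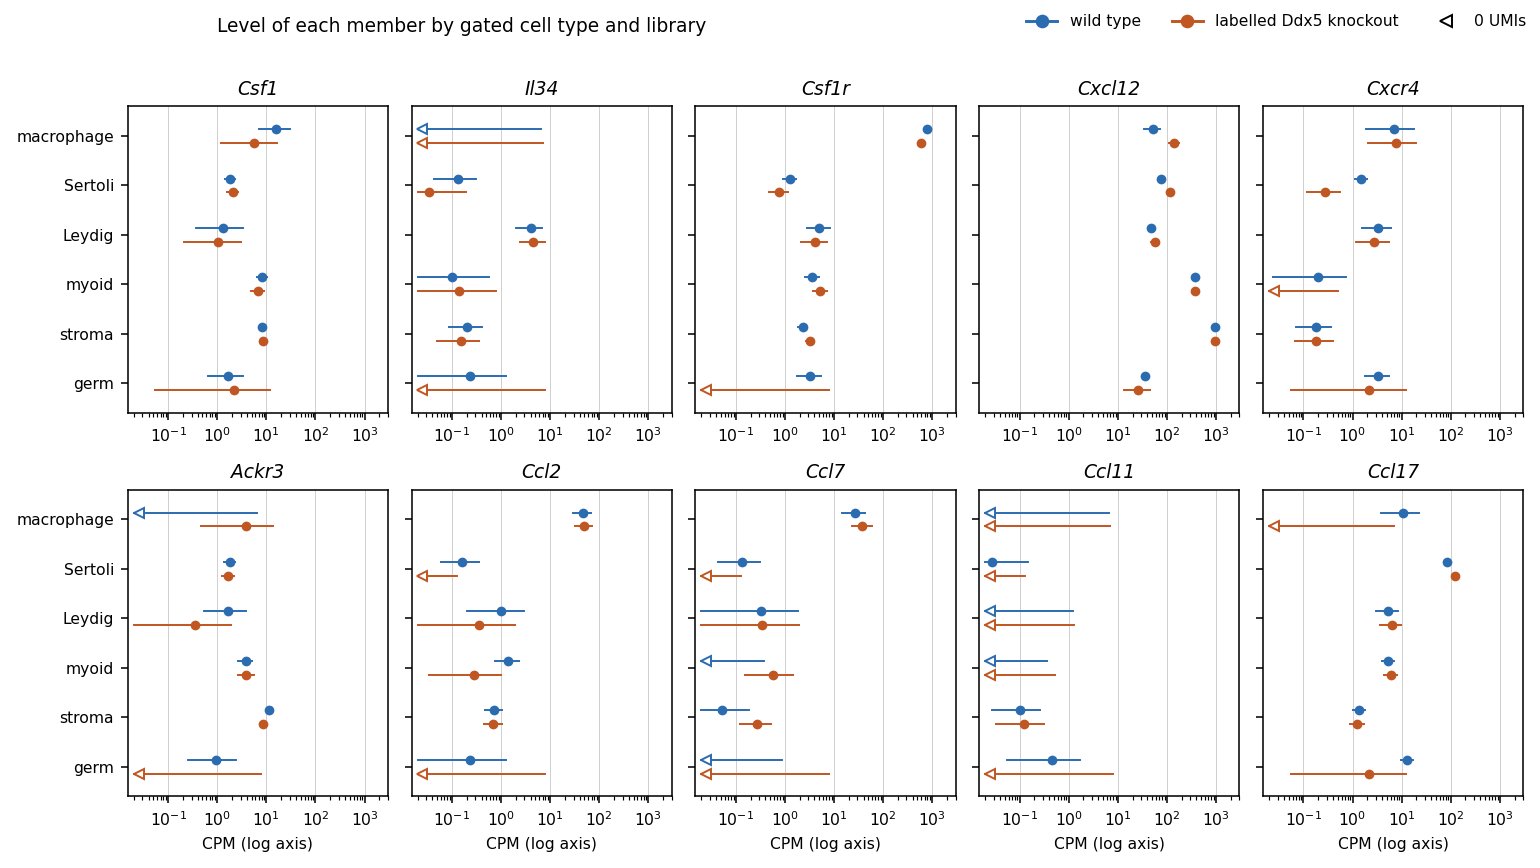
Level of each of the 10 genes in the 6 gated cell types, in CPM on a log axis, with wild type in blue and the library labelled Ddx5 knockout in orange. Points are sums over the cells of a library, bars are exact Poisson 95% intervals drawn down to 0.02 CPM, and open triangles mark 0 UMIs. Csf1r, Ccl2 and Ccl7 stood highest in macrophages, Cxcl12 and Ackr3 in stroma, Ccl17 in Sertoli cells and Il34 in Leydig cells.

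The receptor gene Csf1r (chromosome 18, 61105572 to 61131139, GRCm38.p6) was a macrophage transcript. Wild type macrophages held 454 UMIs of it, 798 CPM (726 to 875), and macrophages of the knockout label 306, 583 CPM (519 to 652). Every one of the 31 wild type macrophages and 20 of the 23 of the knockout label carried it, with a median of 14 and 12 UMIs a cell. The next type, Leydig, stood at 4.98 and 4.17 CPM, so the libraries of the leading type and the next did not overlap. Csf1r was higher in macrophages than in the mean of the other types by 8.15 on the log2 scale (SE 0.22, adjusted p = 3.92e-09, edgeR) and higher than in Leydig cells by 7.36 (SE 0.43, adjusted p = 2.62e-06), a contrast in which 9.98% of all genes were higher. Its low counts in the other types lay mostly in cells that passed several gates: among cells that passed exactly 1 gate, Leydig, myoid and germ cells held 0 UMIs in both libraries, Sertoli cells held 4 and 2, and stroma held 8 and 20. In stroma Csf1r was lower than the mean of the other types by 1.52 on the log2 scale (SE 0.30, adjusted p = 0.00280, edgeR), a direction that turned to 1.52 higher (adjusted p = 0.668, edgeR, not called) on those cells of 1 gate.

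Of the 889 UMIs of Csf1r in all kept cells, 760 (85.5%) were in the macrophage gate. Outside it, the transcript lay in cells with other leukocyte genes. The 69 cells with at least 3 of Tyrobp, Lyz2, Fcer1g and Coro1a, genes of myeloid and other white blood cells, held 103 UMIs of Csf1r, and the 11156 cells with fewer of these genes held 26. The first group stood at 45.3 CPM in wild type (29 cells) and at 174 CPM in the knockout label (40 cells), the second at 0.22 and 0.12 CPM. The same 69 cells held 234 UMIs of Ccr2, the receptor of CCL2 and CCL7, and 319 UMIs of Ly6c2, a surface marker of inflammatory monocytes. The macrophage gate, with the 54 cells of the C1q genes, held 32 UMIs of Ccr2 and 1 of Ly6c2. Within the macrophage gate, Ccr2 was at 45.7 CPM in wild type and 11.4 CPM in the knockout label. These groups were set after the values had been seen and are a description.

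**Figure D2:**
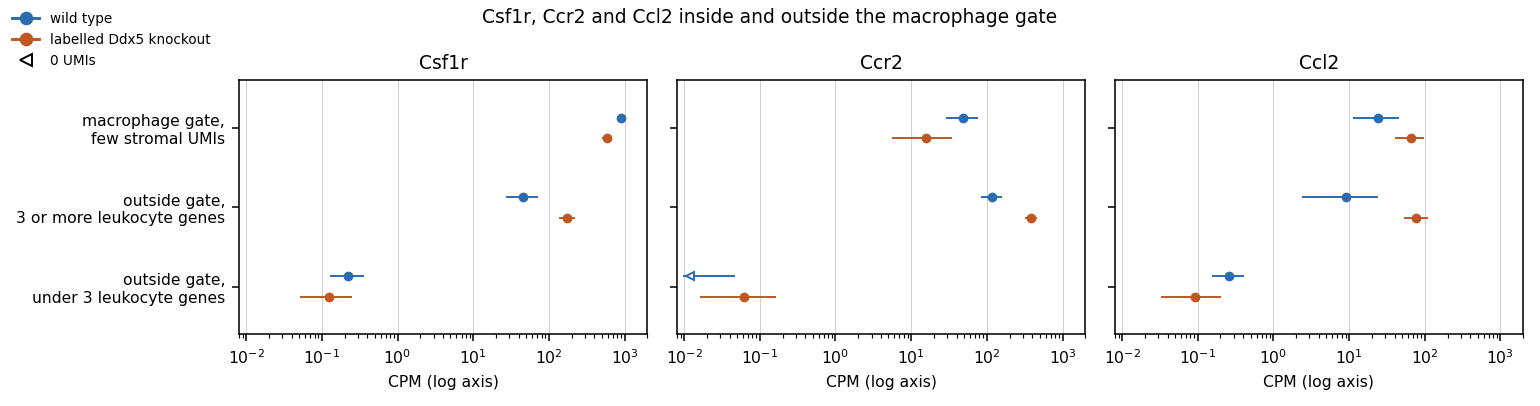
Csf1r, Ccr2 and Ccl2 in CPM on a log axis in macrophage-gate cells with under 10 UMIs of Dcn, Col1a1 and Col3a1, in cells outside that gate with at least 3 of 4 leukocyte genes, and in the remaining cells outside it, by library with exact Poisson 95% intervals. Csf1r was highest inside the gate, at 897 and 587 CPM, and Ccr2 in the leukocyte-gene cells outside it, at 115 and 384 CPM.

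The ligand gene Csf1 (chromosome 3, 107741048 to 107760469) was carried mainly by stroma. It had 322 UMIs in wild type stroma, 8.26 CPM (7.38 to 9.21), and 280 in that of the knockout label, 8.44 CPM (7.48 to 9.49). Myoid cells stood at 8.27 and 6.74 CPM, and their libraries overlapped those of stroma. Of all 767 Csf1 UMIs, 602 (78.5%) lay in the stroma gate. Sertoli cells stood at 1.84 and 2.07, germ cells at 1.62 and 2.16 and Leydig cells at 1.33 and 1.04 CPM. Csf1 was higher than the mean of the other types in stroma by 1.43 on the log2 scale (SE 0.21, adjusted p = 0.000361, edgeR) and in myoid cells by 1.23 (SE 0.24, adjusted p = 0.00298), and lower in Sertoli, Leydig and germ cells. On cells of exactly 1 gate the myoid, Sertoli and germ calls were not made (adjusted p = 0.870, 0.295 and 0.214, edgeR), and the Leydig call was lost with stricter limits on barcodes (2500 genes, 5% mitochondrial UMIs; adjusted p = 0.689).

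Macrophages had the highest mean level of Csf1, at 15.8 CPM (7.23 to 30.0) and 5.71 CPM (1.18 to 16.7), but on 9 and 3 UMIs. Of these 12 UMIs, 8 lay in the 11 macrophage-gate cells that also held at least 10 UMIs of Dcn, Col1a1 and Col3a1, genes of connective tissue cells, and 4 in the 43 others. The macrophage level was called higher than the mean of the other types (log2 2.05, SE 0.50, adjusted p = 0.0187, edgeR), a call not made on cells of exactly 1 gate (adjusted p = 0.0963) or with the stricter limits (0.0535), and it did not pass the test against stroma (log2 0.52, SE 0.45, adjusted p = 0.467), where 11.9% of all genes were higher.

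Il34, the other CSF1R ligand (chromosome 8, 110741829 to 110805949), was rare and lay in Leydig cells, the steroid-making cells of the interstitium. Of 41 UMIs in all kept cells, 25 were in the 320 Leydig cells. The level was 3.99 CPM (2.06 to 6.96) in wild type on 12 UMIs and 4.52 CPM (2.41 to 7.73) in the knockout label on 13 UMIs, and 6.22% and 9.09% of Leydig cells carried a UMI. Stroma, the next type, stood at 0.21 and 0.15 CPM, and macrophages held 0 UMIs, which a floor of 3 UMIs puts at up to 5.27 and 5.71 CPM (Poisson upper limits 6.48 and 7.03). In Leydig cells that passed no other gate the level was 5.30 and 6.2 CPM on 10 and 11 UMIs. Il34 was higher in Leydig cells than in stroma by 4.53 on the log2 scale (SE 0.72, adjusted p = 0.000896, edgeR), against 18.2% of all genes. Il34 did not pass the low-count filter with the stricter limits or on cells of exactly 1 gate, so it was not tested there. Thinned to 5000 UMIs, 2 of 177 and 0 of 142 Leydig cells kept a UMI, so the share of cells cannot be read at that depth. PTPRZ1, a second receptor of IL34, had 24 UMIs of its gene Ptprz1 in germ cells, 4.40 and 10.8 CPM, and was higher there than in the other types by 4.99 on the log2 scale (SE 0.89, adjusted p = 0.00139, edgeR); Sertoli and stroma cells had 44 UMIs each, at under 1 CPM.

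Cxcl12 (chromosome 6, 117168535 to 117181368) was highest in stroma. It had 36614 UMIs in wild type stroma, 939 CPM (930 to 949), and 31422 in that of the knockout label, 948 CPM (937 to 958). A UMI was found in 95.9% and 96.7% of stroma cells, and in 89.4% and 89.5% after each cell was thinned to 5000 UMIs. The median was 8 UMIs a cell in both libraries, with a highest cell of 76 and 66 UMIs. Myoid cells, the contractile cells around the tubules, stood at 371 and 379 CPM, with a median of 4 UMIs. Cxcl12 was higher in stroma than in the mean of the other types by 3.43 on the log2 scale (SE 0.21, adjusted p = 1.25e-06, edgeR) and higher than in myoid cells by 1.35 (SE 0.32, adjusted p = 0.0357), a contrast in which 3.27% of all genes were higher.

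**Figure D3:**
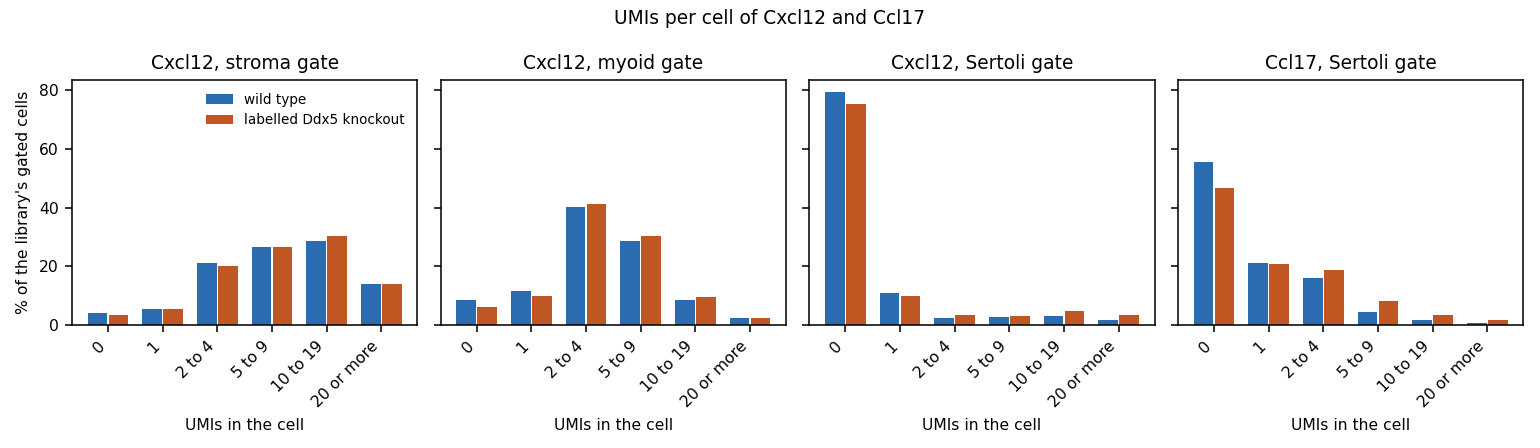
Share of the gated cells of each library, in percent, by the number of UMIs of Cxcl12 (stroma, myoid and Sertoli cells) and of Ccl17 (Sertoli cells). In stroma 95.9% and 96.7% of cells held at least 1 UMI of Cxcl12, while 79.4% and 75.2% of Sertoli cells held none and a small tail held 10 or more.

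In the other 4 of the 6 gated types the level of Cxcl12 followed the stromal transcripts of the cells. Sertoli cells stood at 75.3 and 118 CPM, macrophages at 51.0 and 141, Leydig cells at 47.8 and 56.0 and germ cells at 36.1 and 25.9 CPM. Endothelial cells, an extra gate by Pecam1, Cdh5, Kdr, Emcn and Egfl7, stood higher, at 222 and 388 CPM in 32 and 26 cells. Scrublet marked 12 of these 58 cells, and they were not split by stromal transcripts. Csf1 stood at 8.21 and 9.92 CPM in them, on 7 and 6 UMIs. Of the 6209 UMIs in the Sertoli gate, 5691 lay in the 447 cells that also held at least 10 UMIs of Dcn, Col1a1 and Col3a1. Scrublet marked 401 of those 447 cells, and 33 of the 3444 other Sertoli cells. Sertoli cells under that limit stood at 9.16 CPM (12.4% of cells, median 13170 UMIs) in wild type and at 9.99 CPM (13.3%, median 14989 UMIs) in the knockout label. The same split gave 139 and 132 CPM against 11.6 and 7.95 in Leydig cells, 148 and 523 against 14.5 and 0 in macrophages, and 264 and 98.1 against 10.8 and 5.54 in germ cells. Cells with few stromal transcripts thus held at most 14.5 CPM in each of these 4 types and both libraries. The part of RNA free in the droplets in these low levels was not estimated. Against the mean of the other types Cxcl12 was lower in Sertoli cells by 0.59 on the log2 scale (SE 0.26, adjusted p = 0.107 with edgeR, not called). Without the Scrublet doublets it was lower by 2.79 (adjusted p = 0.000312, edgeR), and it was also called lower by DESeq2 on all cells (0.73 lower), with RLE scaling, with doubled gates and without germ cells.

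**Figure D4:**
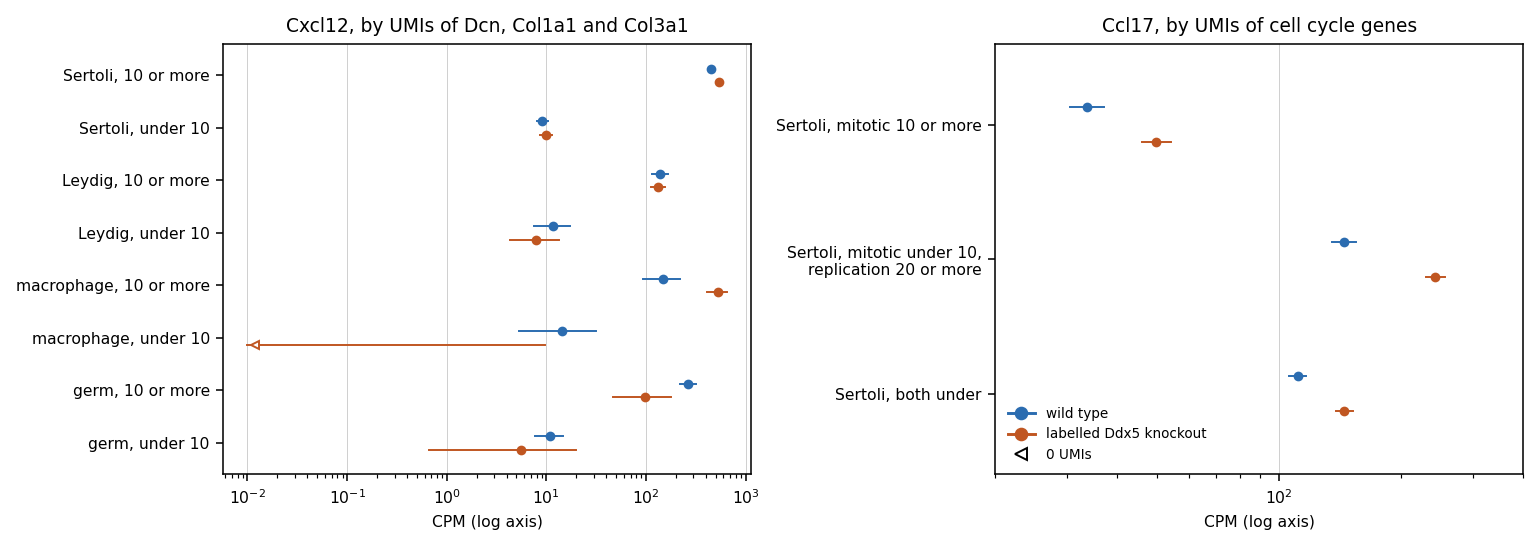
Left, Cxcl12 in CPM on a log axis in 4 gated types, each divided into cells with at least 10 and with under 10 UMIs of Dcn, Col1a1 and Col3a1. Right, Ccl17 in CPM on a log axis in Sertoli cells by UMIs of mitotic and replication genes. Points are sums over the cells of a library (wild type blue, knockout label orange) with exact Poisson 95% intervals. Cxcl12 was at 98.1 CPM or more in each high group and at 14.5 CPM or less in each low group, and Ccl17 was lowest in the mitotic cells.

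Within stroma, Cxcl12 was uneven. Among cells of the stroma gate alone, the 1823 with at least 3 UMIs of Lum and Dpt, genes of fibrous connective tissue, and no Cyp26b1 stood at 1537 and 1499 CPM. The 770 with at least 2 UMIs of Cyp26b1, which encodes the enzyme that breaks down retinoic acid in the fetal testis, and no Lum or Dpt stood at 662 and 515 CPM. Csf1 followed the same order, at 12.4 and 10.7 against 5.10 and 5.33 CPM, as did Ackr3, at 18 and 11.8 against 8.63 and 6.45 CPM. In each of these 3 genes the Lum and Dpt cells of both libraries stood above the Cyp26b1 cells of both. The cells in which stroma and myoid gates overlapped stood at 403 and 393 CPM of Cxcl12. Csf1 was found in 8.10% of the wild type stroma cells with Cxcl12 and 7.48% of those without, and in 8.43% and 10% in the knockout label. Ackr3 was found in 10.3% and 4.76% in wild type and in 8.09% and 5% in the knockout label. The cells without Cxcl12 were few (147 and 100), depth was not matched and no test was made.

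The bases just before the start of Cxcl12 and of Ccl17 are shown because these genes had the most UMIs of the group, each mainly in 1 cell type; each run is the 250 bases upstream of the RefSeq start on the + strand, from chr6:117168285-117168534 and chr8:94810203-94810452 (GRCm38.p6). Capitals mark matches, on either strand, to TATAAA (the TATA box), AGATAA (the GATA motif), AACAAT (the SOX motif), AAGGTCA (the SF1 motif), TGANTCA (the AP-1 motif), GGGCGG (the GC box) and the NF-kB motif. No gene of GENCODE vM21 lies in either window, while the longest RefSeq span of Ccl17 begins further upstream and takes in its window.
Cxcl12: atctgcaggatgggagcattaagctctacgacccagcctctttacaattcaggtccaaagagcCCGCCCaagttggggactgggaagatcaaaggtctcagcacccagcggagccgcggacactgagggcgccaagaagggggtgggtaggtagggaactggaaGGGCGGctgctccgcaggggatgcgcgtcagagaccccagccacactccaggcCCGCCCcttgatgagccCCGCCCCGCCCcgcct
Ccl17: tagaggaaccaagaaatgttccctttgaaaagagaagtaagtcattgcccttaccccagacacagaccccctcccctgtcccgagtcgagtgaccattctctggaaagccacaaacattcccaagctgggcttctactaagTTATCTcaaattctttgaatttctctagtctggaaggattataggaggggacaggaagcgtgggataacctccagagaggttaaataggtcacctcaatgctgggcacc
The Cxcl12 run held 5 matches to the GC box, of which the 2 nearest to the start overlap by 1 base, and none to the others. The Ccl17 run held 1 match to GATA, 109 bases before the start, and none to the others. Of 32851 RefSeq promoters cut to the same length, 32.7% held the GC box and 9.99% the GATA letters. The G and C share was 64.4% for Cxcl12 and 47.6% for Ccl17, beside a median of 52.4% over all promoters. A match is only a run of letters, and these data do not test whether a factor binds there.

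Cxcr4 (chromosome 1, 128588199 to 128592299), the signalling receptor of CXCL12, was sparse in every gated type, with 113 UMIs in all kept cells. Macrophages stood at 7.03 and 7.62 CPM on 4 UMIs each, Leydig cells at 3.32 and 2.78 CPM and germ cells at 3.24 and 2.16 CPM on 14 and 1 UMIs. Macrophages and Leydig cells did not pass the test against each other (log2 1.38, SE 0.89, adjusted p = 0.345, edgeR), and the libraries of Leydig and germ cells overlapped. Stroma stood at 0.18 CPM in both libraries and was lower than the mean of the other types by 2.84 on the log2 scale (SE 0.70, adjusted p = 0.00921, edgeR), and myoid cells were lower by 3.74 (SE 0.92, adjusted p = 0.0116). Stroma and myoid cells, highest for Cxcl12, were the lowest 2 types for Cxcr4. The 2 gates overlap, since 1152 of the 1288 myoid cells also passed the stroma gate. The myoid value rests on 2 UMIs in wild type and 0 in the knockout label. Among cells of exactly 1 gate, myoid cells held 1 and 0 UMIs of Cxcr4. They stood at 1.775 and 0 CPM there, beside 1.41 and 0.29 CPM in Sertoli cells. The calls that Cxcr4 was higher in macrophages (log2 3.64, SE 0.87, adjusted p = 0.0163, edgeR) and in Leydig cells (log2 1.99, SE 0.62, adjusted p = 0.0345, edgeR) were both lost without the Scrublet doublets (adjusted p = 0.0865 and 0.0889, edgeR). Cxcr4 did not pass the low-count filter on cells of exactly 1 gate, and the Leydig call was also lost without the replicate block, the library term (adjusted p = 0.0525). In wild type 9.60% of germ cells (12 of 125, median 34394 UMIs) and 2.39% of Sertoli cells (54 of 2256, median 13711 UMIs) carried a UMI of Cxcr4. Thinned to 5000 UMIs, 0 of 123 germ cells held one (Clopper-Pearson upper limit 2.96%) and 10 of 2237 Sertoli cells (0.447%), so no difference was detectable at that depth. Among germ-gate cells with no Amh the level was 3.63 CPM in wild type on 8 UMIs.

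Ackr3 (chromosome 1, 90203980 to 90215724), which takes up CXCL12, lay with its ligand. It had 439 UMIs in wild type stroma, 11.3 CPM (10.2 to 12.4), and 279 in that of the knockout label, 8.41 CPM (7.46 to 9.46), in 10.1% and 7.99% of cells. Myoid cells stood at 3.79 and 3.93 CPM and Sertoli cells at 1.81 and 1.69 CPM, and stroma lay above both in both libraries. Ackr3 was higher in stroma than in the mean of the other types by 2.66 on the log2 scale (SE 0.28, adjusted p = 3.60e-05, edgeR) and higher than in myoid cells by 1.37 (SE 0.30, adjusted p = 0.0245). Macrophages held 0 and 2 UMIs of it.

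Ccl2, Ccl7 and Ccl11 lie beside each other on chromosome 11 (82035577 to 82037452, 82045712 to 82047525 and 82057832 to 82062955), with 8259 and 10306 bases between neighbours. Ccl2 had 26 UMIs in the macrophages of each library, 45.7 CPM (29.9 to 67.0) in wild type and 49.5 CPM (32.4 to 72.6) in the knockout label, in 9 of 31 and 10 of 23 cells. Ccl7 had 15 and 20 UMIs, 26.4 CPM (14.8 to 43.5) and 38.1 CPM (23.3 to 58.8), in 6 and 10 cells. The next type stood at 1.40 and 0.28 CPM for Ccl2 (myoid) and at 0.33 and 0.35 CPM for Ccl7 (Leydig). Ccl2 was higher in macrophages than in myoid cells by 5.99 on the log2 scale (SE 0.70, adjusted p = 0.000152, edgeR), where 11.9% of all genes were higher, and Ccl7 higher than in Leydig cells by 6.66 (SE 1.31, adjusted p = 0.00647). Against the mean of the other types no size is given for Ccl7, since germ cells held 0 UMIs and the fitted value depends on the prior count.

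Of the 54 macrophages 19 carried Ccl2 and 16 carried Ccl7. Both were found in 2 wild type cells and 7 of the knockout label, where independence of the genes would give 1.74 and 4.35; no test was made. The highest macrophage held 9 UMIs of Ccl2, and of the 120 Ccl2 UMIs in all kept cells 52 lay in the gate and 41 in the 69 leukocyte-gene cells outside it. The 2 highest Ccl2 cells of the whole table, with 19 and 14 UMIs, belonged to the library labelled Ddx5 knockout and failed the macrophage gate. Among macrophages with under 10 UMIs of Dcn, Col1a1 and Col3a1, Ccl2 stood at 24.2 CPM in wild type and 65.2 in the knockout label; in the 11 others it stood at 103 and 7.07 CPM on 16 and 1 UMIs. Ccl11 was at the limit of detection, with 14 UMIs in all kept cells, 8 of them in stroma at 0.10 and 0.12 CPM, and 0 in macrophages, Leydig and myoid cells; it was not tested.

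The receptors of these ligands were counted for the same cells. Ccr1, which binds several macrophage chemokines, had 98 UMIs in macrophages at 98.4 and 80.0 CPM and was higher there by 7.82 on the log2 scale (SE 0.44, adjusted p = 4.76e-07, edgeR). Ccr2 was also called higher in macrophages (adjusted p = 0.000825, edgeR); its size is not given, since Sertoli and Leydig cells held 0 UMIs. Ccr3, the receptor of CCL11, had 4 and 1 UMIs in macrophages and 6 in all kept cells and was not tested. Ccr4, the receptor of CCL17, had 4 UMIs in all 11279 kept cells, 3 in wild type and 1 in the knockout label.

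Ccl17 (chromosome 8, 94809380 to 94812038) was the Sertoli cell gene of the group. Sertoli cells, which enclose the germ cells in the tubule, held 3084 UMIs in wild type, 83.5 CPM (80.5 to 86.5), and 3521 in the knockout label, 122 CPM (118 to 126), which were 97.8% of all 6753 Ccl17 UMIs. A UMI was found in 44.4% (42.3 to 46.5, Clopper-Pearson) and 53.1% (50.7 to 55.6) of Sertoli cells, and in 24.1% and 30.9% after thinning to 5000 UMIs. In stroma, with a median of 9838 and 9933 UMIs, it was found in 1.36% and 1.33% of cells. The spread was wide, from 1255 and 766 Sertoli cells with none to single cells with 42 and 43 UMIs, and the 10% of cells with most Ccl17 held 62.2% and 58.4% of the UMIs. Ccl17 was higher in Sertoli cells than in the mean of the other types by 4.38 on the log2 scale (SE 0.21, adjusted p = 5.19e-07, edgeR). The other types stood at 5.31 and 6.26 CPM (Leydig), 5.28 and 6.04 (myoid), 10.6 and 0 (macrophage) and 1.36 and 1.24 (stroma), and each type overlapped the next in order. The 69 leukocyte-gene cells outside the macrophage gate held 8 and 29 UMIs of Ccl17, 18.1 and 60.9 CPM. The 29 UMIs lay in 2 of the 40 cells of the knockout label, and a single cell with S100a8 or S100a9 in that library held 28 UMIs of Ccl17.

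Germ cells were next, at 13.0 and 2.16 CPM on 56 and 1 UMIs, and lower than Sertoli cells by 3.30 on the log2 scale (SE 0.38, adjusted p = 0.000128, edgeR), a contrast in which 23.7% of all genes were higher in Sertoli cells. Of the 57 germ UMIs, 52 lay in the 39 germ-gate cells that also passed the Sertoli gate, all wild type, and the 98 others held 5, at 1.47 and 2.16 CPM.

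Within Sertoli cells that passed no other gate, Ccl17 differed with the cell cycle genes they carried. The 1174 cells with at least 10 UMIs of Ube2c, Ccnb1, Cdc20 and Cenpa, genes of mitosis, stood at 33.7 CPM (30.6 to 37.0) in wild type and 49.9 (45.9 to 54.2) in the knockout label. The 609 cells with fewer of these but at least 20 UMIs of Mcm2, Mcm3, Mcm5, Mcm6, Hells and Pcna, genes of DNA replication, stood at 145 (136 to 155) and 243 CPM (230 to 257). The 1988 cells with neither stood at 111 (106 to 117) and 145 CPM (138 to 152). The order was the same in both libraries, and in the share of cells with a UMI after thinning to 5000 UMIs, at 13.2% and 18.7%, 33.3% and 45.6%, and 28.2% and 34.8%. Scrublet marked 12.9%, 11% and 7.04% of the 3 groups. The groups were chosen after the values had been seen and carry no test.

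Counted over all 6 types, 26 of the 54 comparisons of a tested gene with the mean of the other types passed edgeR's test, 13 higher and 13 lower. In macrophages Csf1, Csf1r, Cxcr4, Ccl2 and Ccl7 were higher, 5 of the 9 tested, against 11.4% of all genes, and 0 were lower, against 4.91%; at an unadjusted p under 0.05 and by DESeq2 the count lower was also 0. In stroma Csf1, Cxcl12 and Ackr3 were higher, 3 of 9 against 22.8%, and Csf1r, Cxcr4 and Ccl17 lower, 3 of 9 against 12.7%. In myoid cells Csf1 and Cxcl12 were higher, against 18.1%, and Cxcr4 lower, against 11.8%. In Sertoli cells 1 of the 9, Ccl17, was higher, against 20.8%, and Csf1, Csf1r and Ccl2 were lower, against 14.7%; none of these 3 lower calls was made on cells of exactly 1 gate, nor was that of Ccl17 in stroma, and Ccl2 was also not called with the stricter limits. In Leydig cells Il34 and Cxcr4 were higher, against 17.9%, and Csf1 and Cxcl12 lower, against 12.8%; with stricter limits on barcodes (2500 genes, 5% mitochondrial UMIs) none of these 4 Leydig calls was made, since Il34 did not pass the low-count filter and the others had an adjusted p of 0.376 (Cxcr4), 0.689 (Csf1) and 0.189 (Cxcl12, edgeR). In germ cells 0 were higher, against 30.6% of all genes, also at an unadjusted p under 0.05 and by DESeq2, and Csf1, Csf1r, Cxcl12 and Ackr3 were lower, 4 of 9 against 22%. The germ call of Ackr3 (log2 -2.00, adjusted p = 0.0440, edgeR) was lost with RLE scaling (adjusted p = 0.0503), with doubled gates (0.0725), without Scrublet doublets (0.101), with the stricter limits (0.293) and on cells of exactly 1 gate. The germ call of Csf1r rested on 14 UMIs in 1 wild type cell and 0 in the knockout label, and was lost without Scrublet doublets (adjusted p = 0.114, edgeR), with the stricter limits (0.140), with stroma cells of no other gate (0.0649) and on cells of exactly 1 gate. On cells of exactly 1 gate, 12 calls were made, 11 of them among the 26: Csf1r, Ccl2 and Ccl7 in macrophages, Ccl17 in Sertoli cells, Csf1, Cxcl12 and Ackr3 in stroma, Cxcl12 in myoid cells, and Csf1 and Cxcl12 in Leydig and Cxcl12 in germ cells, the last 3 lower; the other call was Cxcl12, lower in macrophages by 1.75 on the log2 scale (adjusted p = 0.0403, edgeR).

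The 2 libraries were set side by side as a description, since each genotype was 1 library. A gene was compared in a type where both libraries together held at least 20 UMIs, and counted as apart where the CPM differed 1.5-fold or more. Of 27 such comparisons 5 were apart. In macrophages it was 1 of 4 genes, against 22.6% of all genes, in Sertoli cells 3 of 6, against 12.4%, in Leydig cells 0 of 4, against 11.5%, in myoid cells 0 of 5, against 8.97%, in stroma 0 of 6, against 9.57%, and in germ cells 1 of 2, against 70.8%, where the knockout label had only 12 cells.

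**Figure D5:**
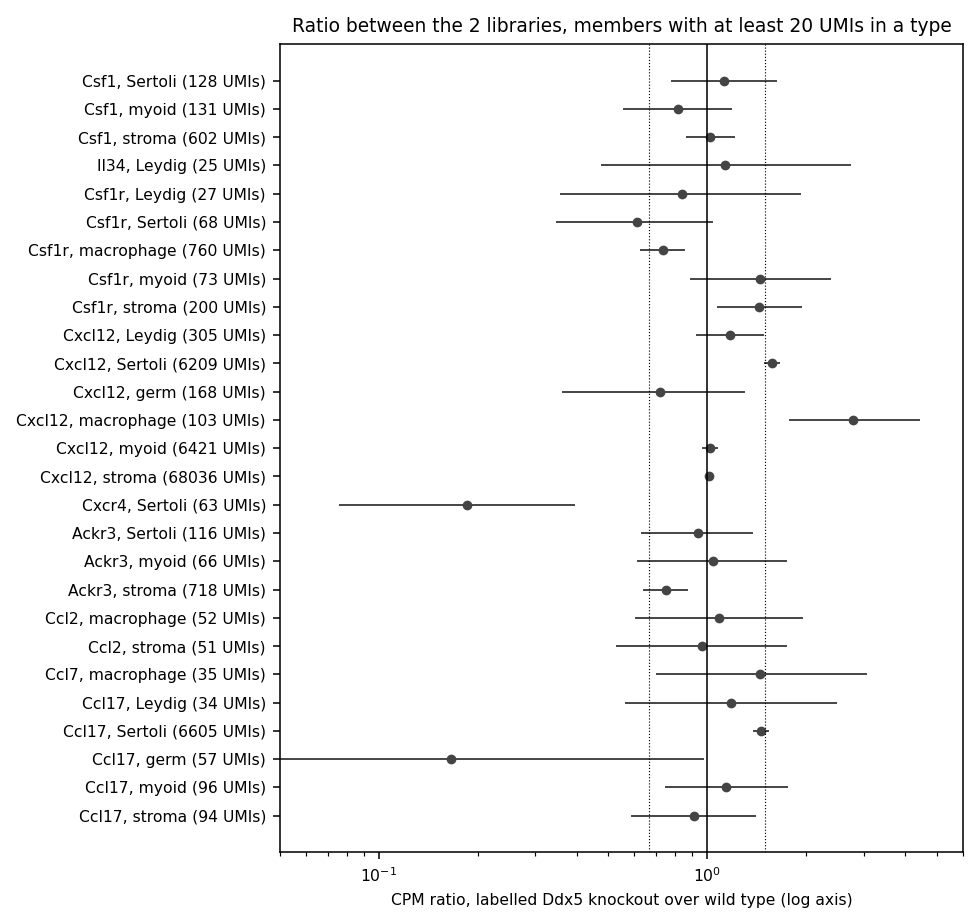
Ratio of CPM between the library labelled Ddx5 knockout and wild type on a log axis, for the 27 pairs of gene and type with at least 20 UMIs, with exact conditional 95% intervals that cover counting error only. The solid line marks a ratio of 1 and the dotted lines 1.5-fold either way. Cxcl12 in stroma lay at 1.01, Ccl17 in Sertoli cells at 1.46 and Cxcr4 in Sertoli cells at 0.186.

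The level of Cxcl12, the most deeply counted gene, was close between libraries over all stroma and all myoid cells. Its ratio of the knockout label to wild type was 1.01 (0.994 to 1.02) in stroma and 1.02 (0.971 to 1.07) in myoid cells. Csf1 had a ratio of 1.02 (0.868 to 1.20) in stroma. Within the Lum and Dpt stroma cells and within the Cyp26b1 stroma cells, by the levels given above, Cxcl12 was lower in the knockout label. Il34 in Leydig cells (1.14, 0.477 to 2.72) and Ccl2 (1.08, 0.605 to 1.94) and Ccl7 (1.45, 0.703 to 3.03) in macrophages had wide intervals, all of which included 1. The Ccl2 ratio rested on which macrophages were counted: it was 2.70 (1.25 to 6.29) in those with under 10 UMIs of Dcn, Col1a1 and Col3a1 and 0.0686 (0.00164 to 0.442) in the 11 others, and in macrophages of exactly 1 gate Ccl2 stood at 19.3 CPM in wild type and 101.7 in the knockout label, on 6 and 25 UMIs. Ackr3 in stroma was lower in the knockout label (0.747, 0.641 to 0.870), and within the Lum and Dpt cells it stood at 18 and 11.8 CPM. Csf1r in macrophages was at 0.730 (0.630 to 0.846) of wild type. Markers of other cells also differed in that gate: 9 dendritic cell markers summed to 919 CPM in wild type and 30.5 in the knockout label, with Flt3, Xcr1, Cd209a, Ccr7 and H2-Aa at 0 in the latter and Xcr1 in the former, and 3 erythroid markers summed to 2440 and 7.62 CPM; their part in the macrophage values was not tested.

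Ccl17 in Sertoli cells was 1.46 times as high in the library labelled Ddx5 knockout (1.39 to 1.53). The ratio was 1.48 in the mitotic, 1.68 in the replication and 1.30 in the remaining Sertoli cells, so it was above 1 in all 3 groups. In Sertoli cells 32.4% of all 16427 genes compared had an interval that left out 1, so an interval off 1 was common between these 2 libraries.

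Other transcripts of the same cells were counted beside the Sertoli and macrophage comparisons that were apart. Cxcl12 in Sertoli cells had a ratio of 1.57 (1.5 to 1.65), and the share of Sertoli cells with at least 10 UMIs of Dcn, Col1a1 and Col3a1 was 9.93% in wild type and 13.6% in the knockout label; in the other Sertoli cells the ratio was 1.09 (0.914 to 1.30). Cxcl12 in macrophages had a ratio of 2.77 (1.78 to 4.41), and 97 of its 103 UMIs lay in 11 cells with those transcripts. Cxcr4 in Sertoli cells was at 1.49 CPM in wild type and 0.28 in the knockout label, on 55 and 8 UMIs. The ratio was 0.186 (0.0764 to 0.392). After each cell was thinned as above, 10 of 2237 wild type Sertoli cells held a UMI of Cxcr4 (0.447%, 0.215 to 0.821). In the knockout label 5 of 1631 did (0.307%, 0.0996 to 0.714). These intervals overlapped, so no difference in the share of cells was detectable at that depth. The 5 germ cell markers summed to 17.7 and 2.87 CPM in all gated Sertoli cells. Of the 5, 2 were at 0 in the knockout label. In Sertoli cells without a UMI of Dazl, Ddx4, Mael or Stk31 Cxcr4 stood at 1.33 and 0.28 CPM, a ratio of 0.210 (0.0857 to 0.451). Csf1r in Sertoli cells was at 0.611 (0.350 to 1.04), with 46 UMIs in 7 wild type cells and 22 in 3 of the knockout label, and the 7 macrophage markers summed to 19.6 and 16.5 CPM in Sertoli cells. Ccl17 in germ cells was at 0.167 (0.00414 to 0.967), where 52 of the 56 wild type UMIs were in cells that also passed the Sertoli gate.

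The wider chemokine and cytokine genes were described from lists. Of 33 other chemokine ligands 16 passed the filter on low counts, of which 9 were higher in macrophages (Cxcl2, Pf4, Cxcl16, Ccl3, Ccl4, Ccl6, Ccl9, Ccl12 and Ccl24), against 11.4% of all genes, and 1, Ccl25, lower, against 4.91%, with a median log2 difference of 4.83 beside -0.30 over all genes. Pf4, a heparin-binding platelet chemokine also made by tissue macrophages, stood at 2410 and 1535 CPM, and Ccl12, whose gene lies 38889 bases beyond Ccl11 in the same cluster, at 36.9 and 38.1 CPM. Sertoli cells had 2 of the 16 higher, Cx3cl1 and Ccl27a, against 20.8% of all genes, and 7 lower, against 14.7%. Cx3cl1, the ligand of the macrophage receptor CX3CR1, lies 26952 bases from Ccl17 and stood at 38.9 and 43.2 CPM in Sertoli cells (log2 2.14, SE 0.19, adjusted p = 1.31e-05, edgeR), while its neighbour Ccl22 had 2 and 0 UMIs there. Its receptor gene Cx3cr1 stood at 842 and 752 CPM in macrophages. Stroma had 4 higher (Cxcl10, Cxcl13, Cxcl16 and Ccl25), against 22.8% of all genes, and 1 lower (Pf4), against 12.7%. Myoid cells had 5 higher (Cxcl10, Cxcl14, Cxcl16, Ccl25 and Cx3cl1), against 18.1%, and 1 lower, against 11.8%. Leydig cells had 4 higher (Cxcl1, Cxcl10, Ccl25 and Ccl27a), against 17.9%, and 2 lower, against 12.8%. Germ cells had 1 higher, Cxcl14, against 30.6%, and 2 lower, against 22%.

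Of 21 other chemokine receptors 6 passed the filter, and Ccr1, Ccr2, Cx3cr1 and Ccrl2 were among those higher in macrophages, where 11.4% of all genes were higher. Ackr4, an uptake receptor of other chemokines, was higher in stroma, at 2.36 and 1.48 CPM (1 of 6, against 22.8% of all genes), and with Ccrl2 in myoid cells (2 of 6, against 18.1%). Lower were 3 in Sertoli cells (Ccr1, Cx3cr1 and Ccrl2, against 14.7% of all genes), 2 in germ cells (Cx3cr1 and Ccrl2, against 22%) and 1, Cx3cr1, in myoid cells (against 11.8%) and in stroma (against 12.7%). Of 11 other colony stimulating factor genes 8 were tested, and macrophages had 4 higher (Csf2ra, Csf2rb, Csf2rb2 and Csf3r), against 11.4% of all genes. Each other type had 1 of the 8 higher, no larger a share than that of all genes in that type: Flt3 in Sertoli cells (20.8% of all genes), Flt3l in Leydig cells (17.9%), Sdc1 in stroma (22.8%) and myoid cells (18.1%) and Ptprz1 in germ cells (30.6%). Lower were Csf2rb and Flt3l in Sertoli cells (against 14.7%), Sdc1 in Leydig cells (12.8%), Flt3 in stroma (12.7%) and Csf2ra in germ cells (22%). Of 16 adaptors of CSF1R and macrophage genes 14 were tested and 13 were higher in macrophages, against 11.4% of all genes, among them the signalling adaptor Tyrobp at 2640 and 2631 CPM and the myeloid transcription factor Spi1 at 343 and 303 CPM; the exception was Ly6c2, at 1 UMI.

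Immediate early genes, which rise within minutes of handling a tissue, were counted beside these results because several chemokines share that response. All 15 were tested. In macrophages 8 were higher, against 11.4% of all genes, and 1 lower, against 4.91%, and in germ cells 0 were higher, against 30.6%, and 11 lower, against 22%. The counts higher and lower were 5 and 5 in Sertoli cells, 6 and 3 in Leydig, 5 and 4 in myoid and 5 and 5 in stroma, where 17.9% to 22.8% of all genes were higher and 11.8% to 14.7% lower. Their summed level was lower in the knockout label in every type, from 3097 to 2031 CPM in macrophages, from 3059 to 2014 in stroma, from 2317 to 1930 in Sertoli, from 3275 to 2878 in Leydig, from 2568 to 1855 in myoid and from 992 to 529 in germ cells; their part in the levels of Ccl2 and Ccl7 was not tested. Of 8 NF-kB targets 7 were tested, of which 4 were higher in macrophages (Nfkbia, Nfkbiz, Icam1 and Tnfaip3), against 11.4% of all genes, and 5 in Leydig cells, against 17.9%, where Icam1 was lower. In germ cells 5 were lower, against 22%, and in Sertoli cells 4, against 14.7%. Cxcl1 in Leydig cells stood at 24.2 CPM in wild type and 1.04 in the knockout label.

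The genes with the most similar profiles over the 12 sums were found by Pearson's r of log2(CPM + 10) among 17360 genes with at least 50 UMIs, as a description over 12 points that share 2 libraries. The names depend on the constant: with 1 in place of 10, all 3 nearest genes changed for Ccl2 and 2 of 3 for Csf1, Cxcl12, Ackr3 and Ccl17. Csf1r was most like Cd53, Cx3cr1 and Ms4a6c (r of 0.999 for each), and Ccl2 most like Evi2a, A130071D04Rik and Plek (0.998 for each). Cxcl12 was most like Adamts5 (0.988), Plagl1 (0.986) and Col1a1 (0.986), and Ackr3 most like Angpt2 (0.967), Nrsn2 (0.961) and Dlk1 (0.959). Csf1 was most like Ptpro (0.97), Sema4a (0.951) and Galnt4 (0.949). Ccl17 was most like Gm44286 (0.987), Cst11 (0.987) and Reep1 (0.985), and Cxcr4 most like Ptk2b (0.986), Htatip2 (0.985) and Gm43775 (0.978). Every Cxcr4 level lay below the constant of 10, and its highest type, macrophage, held 8 UMIs in both libraries together, so its r says little.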

How the data were processed

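The authors deposited 1 table of UMI counts per gene and barcode, unnormalised; per the submitters' processing notes and the study's methods it was made with Cell Ranger 3.1.0 on GRCm38 and analysed with Seurat 3.1.5. The 16 labelled samples (8 libraries per genotype) cannot be separated in it. Barcode suffixes were assigned to genotypes from the cell numbers the study states and from the Cre transgene's UMIs, and 0 further columns of per-sample values were left unused. Totals were 84263163 UMIs over 6763 barcodes (wild type) and 67558106 over 5423 (knockout label).

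A barcode was kept if 2000 genes or more were detected and mitochondrial UMIs did not exceed 10%. Gates were at least 5 UMIs of the C1q genes, 3 of Amh, 20 of the 3 Leydig genes, 5 of Acta2 with 2 of Myh11, 1 of Pdgfra with at most 2 of Amh, or 3 of 4 germ markers. UMIs were summed per type and library and given as CPM (UMIs of a gene per 1000000 UMIs of those cells), and 3′ counts were not compared between genes. Doublets were called with Scrublet through scanpy 1.11.5. The sums were fitted with edgeR 4.0.16 in R 4.3.3 (quasi-likelihood, TMM, filterByExpr, library as a term, threshold 0.05); the scripts were tested on simulated counts first. DESeq2 1.42.0 was an alternative. Ccl11 did not pass the filter. Intervals and floors (3 UMIs) cover counting error only. RNA free in the droplets was not estimated, so a low level or a low share of cells cannot be read as expression in those cells.

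Promoter sequences are from a table of RefSeq promoters (GRCm38.p6), in which 5 of the 10 genes were matched. Named genes were all 10 members, genes of the lists with at least 20 UMIs in a type and a call, the receptors of the member ligands, and the 3 genes nearest in profile for members with at least 50 UMIs; other list genes named beside a count were chosen after their values were seen. The result of 1 gene under this rule is not reported here. The members and lists were chosen with earlier results of these data known, and the subsets of cells after values had been seen.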

Additional observations from a re-analysis of the deposited data

Results flagged for a closer look

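The ratio of the knockout label to wild type differed in direction between cell types for 2 genes, by intervals of counting error that lay on opposite sides of 1; the differences were not tested, since each genotype was 1 library. Csf1r had a ratio of 1.437 in stroma and 0.7304 in macrophages. In stroma cells of no other gate its 20 UMIs in the knockout label lay mostly in 8 cells with at least 3 leukocyte genes (15 UMIs), against 0 UMIs in 5 such cells of wild type. Ccl17 had a ratio of 1.458 in Sertoli cells and 0.1666 in germ cells, the latter on 56 and 1 UMIs, of which 52 lay in wild type cells that also passed the Sertoli gate. In germ-gate cells with at most 2 UMIs of Amh the ratio was 1.47 (0.0298 to 14.8), on 4 and 1 UMIs, so the direction in germ cells turned without them.

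In cells outside every gate 3 of the genes had an interval of the ratio to wild type above 1. In the 162 such cells of the knockout label Csf1r stood at 44.81 CPM, Ccl2 at 13.38 CPM and Ccl7 at 4.013 CPM, beside 10.8, 4.10 and 0 CPM in the 214 of wild type. Single cells carried much of this, with 14 of the 20 Ccl2 UMIs and 5 of the 6 Ccl7 UMIs in 1 cell each, while the 67 Csf1r UMIs lay in 19 cells. Ackr3 went the other way, at 2.68 CPM in the knockout label and 14.3 in wild type (ratio 0.187, 0.0475 to 0.533), as did Cxcl12 (0.878, 0.809 to 0.952). The 7 macrophage markers summed to 554 CPM in the wild type cells and 3322 CPM in those of the knockout label. Markers of other leukocytes differed too: 5 neutrophil markers summed to 20 and 1037 CPM, 9 dendritic cell markers to 1528 and 144 CPM and 6 lymphocyte markers to 57.4 and 140.5 CPM; their part was not tested.

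Barcodes that failed the filter on genes or mitochondrial UMIs, 434 in wild type and 473 in the knockout label, held 59 UMIs of Cxcr4, 34.3% of all in the table. The level was 34.82 CPM in the knockout label and 8.91 CPM in wild type. Of these UMIs 26 lay in barcodes with at least 5 UMIs of S100a8 and S100a9, neutrophil genes, and 30 in barcodes with at least 2 UMIs of Cd79a and Cd79b, B cell genes. Ccl17 stood at 31.86 CPM in the failed barcodes of the knockout label, on 43 UMIs in 19 barcodes against 7 UMIs in wild type, and 18 of the 43 lay in 5 barcodes with at least 3 UMIs of Amh.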

How the results depend on the processing

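The 26 calls of these genes kept their sign in each library alone (26 and 26, no test). Without the library as a term (no replicate block) 25 calls were made, the one lost being Cxcr4 in Leydig cells. On cells of exactly 1 gate 12 calls were made (11 shared), where 21 of the 26 could be tested. The number of calls was 26 with no low-count filter and with all barcodes, 26 with RLE scaling and with doubled gates (25 of them shared with the report, Ackr3 in germ cells being lost in both), 27 without germ cells (22 shared), 24 without Scrublet doublets (22 shared), 19 with stricter limits (2500 genes, 5% mitochondrial UMIs; 18 shared), 29 with DESeq2 (26 shared), and 25 with stroma cells of no other gate, an alternative chosen after seeing the data. Csf1r in stroma turned from -1.52 to 1.519 on the log2 scale on cells of exactly 1 gate, and Ccl17 in germ cells from a ratio of 0.167 to one of 2.491, on 3 and 1 UMIs, under the minimum of 20 for a ratio. The 5 ratios past 1.5-fold became 12 on cells of exactly 1 gate, and 8 without Scrublet doublets, with the stricter filter and with the mean CPM of single cells, all counted over the same 27 pairs without setting the minimum anew. Over pairs that still held 20 UMIs these counts were 7 of 18, 6 of 25, 7 of 25 and 8 of 27; the cause was not tested. Over the 11 alternatives with a test, and counting comparisons called in the report or newly called under an alternative, 251 log2 differences stayed on their side of the threshold, 24 lost their call, 14 gained one and 1 reversed. Depth limits Il34, Cxcr4, Ccl7 and Ccl11, which had 14 to 113 UMIs in all kept cells, and germ cells of the knockout label, of which there were 12.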
